A study of Mus musculus with 12 samples.

Results

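The comparison is between cultured mouse cardiac fibroblasts given the kinase inhibitor AG1296 at 10 uM and the same kind of cells given 1 uM. It uses 6 of the 12 arrays of the series, chosen by their labelled dose, 3 for AG1296 10 uM and 3 for AG1296 1 uM. The other arrays are 3 from cells that received the ligand PDGF-AB (50 ng/ml) and 3 from untreated cells. All of the cells were cardiac colony forming units - fibroblast (cCFU-F), sorted from hearts of male C57BL/6 mice aged 12 weeks by a SCA1+ PDGFRα+ CD31- gate and cultured before treatment. No source used here gives the vehicle or how long treatment lasted, and the labels do not say whether arrays of a group came from separate cultures or animals, so p-values measure the spread between arrays, which may be technical.

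AG1296 is a tyrphostin that blocks the ATP site of the PDGF receptors, and it is also known to act on c-Kit and FGF receptors. PDGF receptors are receptor tyrosine kinases at the surface of fibroblasts and mural cells; on binding a PDGF dimer they signal through the ERK and PI3K pathways and favour proliferation and migration. In the heart, PDGFRα marks interstitial fibroblasts, the cells that make most of the collagen and proteoglycan matrix. The comparison asks how expression at the higher dose differed from that at the lower one, across 19938 genes measured by 1 probe set each. All values below are log2 expression as deposited, all differences are 10 uM minus 1 uM on the log2 scale with the standard error (SE) of the fit unless another comparison is named, and all n are 3 arrays per group.

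The array medians ran from 4.02 to 4.13 over the 12 arrays. Within a group, pairs of arrays had r of 0.992 to 0.996 over genes, which are not independent of each other, and pairs of arrays from different AG1296 doses had 0.991 to 0.995. Of 26 genes of cardiac fibroblast identity, some were bright and 4 averaged below every array median at both doses (Pi16, Dpp4, Tbx5 and Clec3b). Vim, a filament protein of mesenchymal cells, averaged 12.83 at 10 uM and 12.79 at 1 uM, and the receptor tyrosine kinase and fibroblast marker Ddr2 averaged 9.52 and 9.27 in the same order of doses. Pecam1, which encodes the CD31 used to leave endothelial cells out, averaged 3.11 ± 0.22 at 10 uM and 3.10 ± 0.16 at 1 uM (SD), below every array median. No single-symbol probe set carried the symbol Ly6a, the gene of SCA1, so that part of the gate was not checked.

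At 10 uM, 75 genes (0.376% of those tested) differed from 1 uM at an adjusted p under 0.05 in limma, and these are the genes said here to have risen or fallen. Of these, 39 rose (0.196%) and 36 fell (0.181%). The largest falls were of Lum (lumican), Fibin, Npy1r, Cdo1, Peg10 and Dcn (decorin). The largest rises were of Nrn1, Plac8, Mcam and Dkk2, and the genes that rose included the sterol and fatty acid synthesis genes Hmgcs1, Fdps, Nsdhl and Scd2. Most differences were modest, with a median size of 0.61 and a smallest of 0.40 among the 75. Only 6 were at least 2-fold, of which 5 fell (Lum, Fibin, Npy1r, Cdo1 and Peg10) and 1 rose (Nrn1). All 75 had 3 arrays at one dose beyond the 3 at the other, which was so for 3172 genes (15.9%) over the whole table.

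The count of 75 depended on single arrays. Without 10 uM replicate 1, 2 or 3 it was 16, 39 or 19 genes, without 1 uM replicate 1, 2 or 3 it was 26, 16 or 29, and without untreated replicate 2 it was 49. Of the 52 called genes named here by rule, 12 stayed called whichever 1 of the 12 arrays was left out: Lum, Fibin, Npy1r, Cdo1, Peg10, Dcn, Slc7a11, Ccl17, Mfap4, Mt2, Vegfc and Mcam. The remaining 40 each lost their call without at least 1 array, and those arrays are named below. All 52 kept their direction under every alternative that gave them a value. With each array centred on its median, 22 genes rose and 33 fell, so that 40% of the called genes were higher at 10 uM, in place of 52%. With the 6 AG1296 arrays fitted alone, 14 genes were called, 3 higher and 11 lower. The difference over all genes was centred near 0, with a median of 0.02 and an interquartile range of -0.08 to 0.11, and 10978 of the genes (55.1%) lay above 0. At an unadjusted p under 0.05 there were 1809 genes (9.07%), 1043 higher and 766 lower. For a typical gene the unadjusted 95% confidence interval reached 0.25 to either side. The call asked for more with this number of arrays, since the smallest called difference was 0.40. Some larger ones were not called, such as that of Lmod1 at 0.61 (adjusted p = 0.131 in limma), so a missing call does not exclude a difference of that size.

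**Figure D1:**
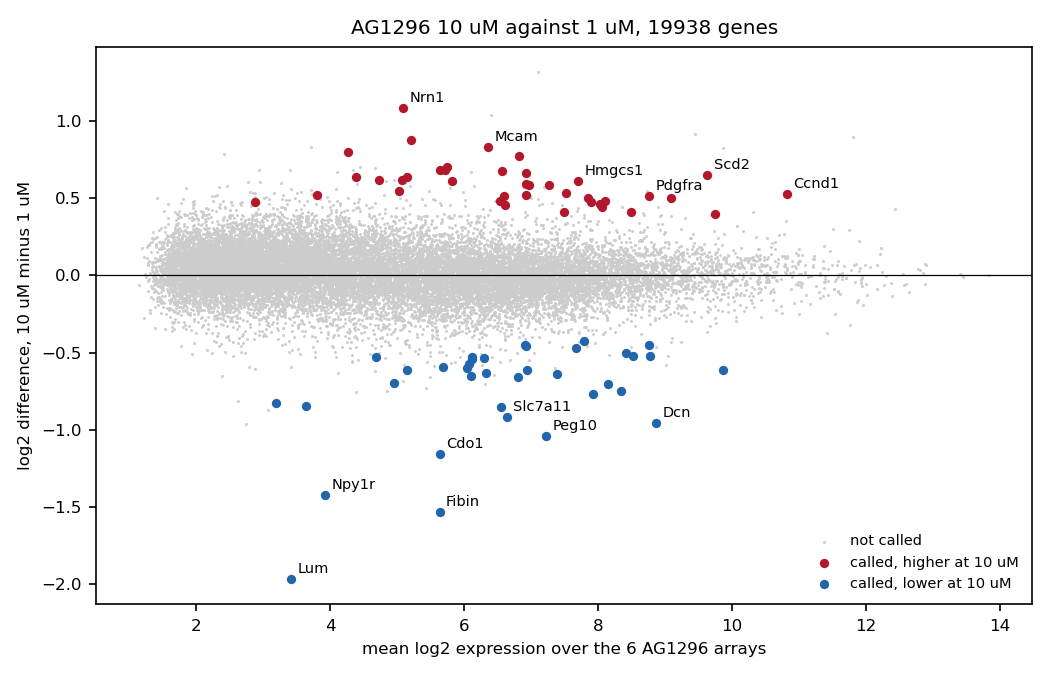
Log2 difference (10 uM minus 1 uM, vertical axis) against the mean log2 expression over the 6 AG1296 arrays (horizontal axis), 1 point per gene for 19938 genes. Red points are the 39 genes called higher at 10 uM and blue points the 36 called lower; Lum lies lowest at -1.96 and Nrn1 highest among the called genes at 1.08.

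The untreated arrays show where the 2 doses stood. Against untreated, 375 genes (1.88%) were called at 10 uM and 639 (3.2%) at 1 uM. Both counts share the untreated arrays, and each shares its treated arrays with the comparison of doses, whose difference is arithmetically that of the other 2. Values against untreated are therefore given side by side, and for some of the named genes only. No overlap or agreement between the comparisons is counted.

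Lum, which encodes lumican, a small leucine-rich proteoglycan that binds collagen fibrils, had the largest difference among called genes. Its 3 arrays read 2.46, 2.65 and 2.18 at 10 uM, against 4.49, 4.49 and 4.21 at 1 uM. The groups were far apart, and the 10 uM arrays lay below every array median. The difference was -1.96 (SE 0.13, 95% confidence interval -2.25 to -1.68, adjusted p = 1.22e-05). Against untreated, Lum differed by -0.06 at 10 uM (adjusted p = 0.935) and by 1.91 at 1 uM (adjusted p = 2.1e-06).

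Dcn encodes decorin, a proteoglycan of the same family that coats collagen fibrils and binds growth factors. It read 8.28, 8.41 and 8.47 at 10 uM, against 9.43, 9.47 and 9.15 at 1 uM, with no overlap. The fall was by 0.96 (SE 0.10, adjusted p = 0.000998). Unlike Lum, decorin was called higher than untreated at both doses, by 0.75 at 10 uM (adjusted p = 0.00155) and by 1.70 at 1 uM (adjusted p = 8.21e-07). These were the only called members of the 15 small leucine-rich proteoglycans measured, while 0.376% of all genes were called. Biglycan (Bgn) read a mean of 11.33 at 10 uM and 11.41 at 1 uM (adjusted p = 0.831). The median of the list was -0.02, against 0.02 over all genes.

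Other matrix genes were called in both directions. Over all genes 0.376% were called, the share to set beside the counts of called members here. Mfap4, a microfibril-associated protein of elastic fibres, read 8.06, 7.88 and 7.98 at 10 uM, against 8.69, 8.72 and 8.76 at 1 uM, and fell by 0.75 (SE 0.09, adjusted p = 0.00145). It was called higher than untreated at both doses, by 0.82 at 10 uM and 1.56 at 1 uM (adjusted p = 0.000153 and 4.9e-07). Col6a1, a chain of the beaded-filament collagen VI, rose to 8.11 ± 0.05 at 10 uM, against 7.60 ± 0.10 at 1 uM (SD; difference 0.50, adjusted p = 0.0221). These 2 were the called members of 31 interstitial matrix genes, whose median was 0.08. Of 21 basement membrane genes, 1 was called, the laminin linker nidogen-1 (Nid1), at 9.95 ± 0.08 at 10 uM and 9.55 ± 0.03 at 1 uM (SD; difference 0.40, adjusted p = 0.0483). Of 20 collagen processing enzymes, 1 was called, the tolloid-like protease Tll1, which cleaves procollagen and BMP antagonists; it rose by 0.59 (SE 0.09, adjusted p = 0.0138). The call of Col6a1 was lost when any 1 of the 6 AG1296 arrays was left out (adjusted p of 0.0529 to 0.121), that of Tll1 without 10 uM replicate 1 or 3 or 1 uM replicate 2 or 3 (0.0558 to 0.0828), and that of Nid1 without any 1 array but PDGF-AB replicate 1 (0.0682 to 0.232).

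Dpt, which encodes dermatopontin, a matrix protein and a marker of interstitial fibroblasts, averaged 3.22 ± 0.19 at 10 uM and 4.06 ± 0.14 at 1 uM (SD), and was below every array median in the 10 uM arrays. It fell by 0.85 (SE 0.13, adjusted p = 0.0162) and differed from untreated by -0.02 at 10 uM and 0.83 at 1 uM (adjusted p = 0.985 and 0.00272). The call was lost without 10 uM replicate 1 or 3 or 1 uM replicate 1 or 2 (adjusted p of 0.0828 to 0.0882). Dpt was the 1 called member among 26 genes of cardiac fibroblast identity, while 0.376% of all genes were called. The transcription factor Tcf21, a lineage marker of cardiac fibroblasts, averaged 8.08 at 10 uM and 8.44 at 1 uM without passing the test (adjusted p = 0.307), and the surface marker Thy1 averaged 8.35 at 10 uM and 7.99 at 1 uM (adjusted p = 0.232).

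Fibin had the lowest adjusted p of all genes. It encodes a secreted protein first described as a signal for fin bud outgrowth in zebrafish. It read 5.00, 4.75 and 4.86 at 10 uM, against 6.47, 6.40 and 6.34 at 1 uM, so the doses were separated by more than 1 log2 unit. The difference was -1.53 (SE 0.09, adjusted p = 4.68e-06), and against untreated it was 0.30 at 10 uM (adjusted p = 0.153) and 1.83 at 1 uM (adjusted p = 2.33e-07).

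Npy1r, which encodes a neuropeptide Y receptor, read 3.12, 3.51 and 3.01 at 10 uM, against 4.49, 4.73 and 4.68 at 1 uM. Like Lum it lay below every array median in the 10 uM arrays. It fell by 1.42 (SE 0.13, adjusted p = 0.000216) and differed from untreated by 0.49 at 10 uM and 1.92 at 1 uM (adjusted p = 0.0736 and 1.22e-06). Peg10, an imprinted gene derived from a retrotransposon, read 6.65, 6.79 and 6.69 at 10 uM, against 7.82, 7.67 and 7.76 at 1 uM, and fell by 1.04 (SE 0.09, adjusted p = 0.000216). It differed from untreated by 0.24 at 10 uM and 1.28 at 1 uM (adjusted p = 0.341 and 3.09e-06). Both were called against untreated at 1 uM and not at 10 uM, and the comparison of doses is itself the test of that difference.

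Among the genes that rose, Nrn1 had the largest difference. It encodes neuritin, a small membrane-anchored protein known for promoting neurite outgrowth. It read 5.52, 5.68 and 5.70 at 10 uM, against 4.12, 4.78 and 4.76 at 1 uM. 1 uM replicate 1 lay below its 2 companions, and no array at 1 uM reached the 10 uM arrays. The difference was 1.08 (SE 0.15, adjusted p = 0.00778), and the call was lost without 10 uM replicate 3 (adjusted p = 0.0518). Nrn1 was called lower than untreated at both doses, with differences of -1.59 at 10 uM (adjusted p = 6.46e-05) and -2.67 at 1 uM (adjusted p = 5.38e-07).

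Mcam, a cell adhesion molecule found on pericytes, smooth muscle and endothelium, read 6.69, 6.80 and 6.82 at 10 uM, against 6.08, 5.88 and 5.87 at 1 uM. It rose by 0.83 (SE 0.09, adjusted p = 0.0011), and it was called lower than untreated at both doses, with differences of -0.59 at 10 uM and -1.42 at 1 uM (adjusted p = 0.00381 and 1.15e-06). Cd248, which encodes endosialin, a surface glycoprotein of fibroblasts and pericytes, averaged 7.26 ± 0.07 at 10 uM and 6.60 ± 0.05 at 1 uM (SD; difference 0.66, adjusted p = 0.00822). Its call was lost without 10 uM replicate 1 or 3 or 1 uM replicate 1 (adjusted p of 0.0513 to 0.0548). Against untreated Cd248 differed by 0.03 at 10 uM and -0.63 at 1 uM (adjusted p = 0.958 and 0.00145).

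Mcam was the 1 called member of 12 pericyte and smooth muscle markers, while 0.376% of all genes were called. The median of the 12 was 0.12, and 8 lay higher at 10 uM. With Mcam counted, 4 had an unadjusted p under 0.05, all higher (9.07% of all genes). The arrays did not overlap in 5, all higher (15.9% of all genes). The mean level of the 12 ran from 4.36 to 4.42 in the 10 uM arrays and from 4.13 to 4.28 in the 1 uM arrays; Mcam itself is part of this mean, and 55.1% of all genes lay higher. Of the 12, 7 averaged below every array median at both doses. Among these, Rgs5 averaged 2.65 at 10 uM and 2.57 at 1 uM, and Kcnj8 averaged 3.70 and 3.53 in the same order. The list also held the bright Pdgfrb, at 9.17 at 10 uM and 9.22 at 1 uM. In bulk samples, more RNA per cell and more cells of a type cannot be told apart.

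**Figure D2:**
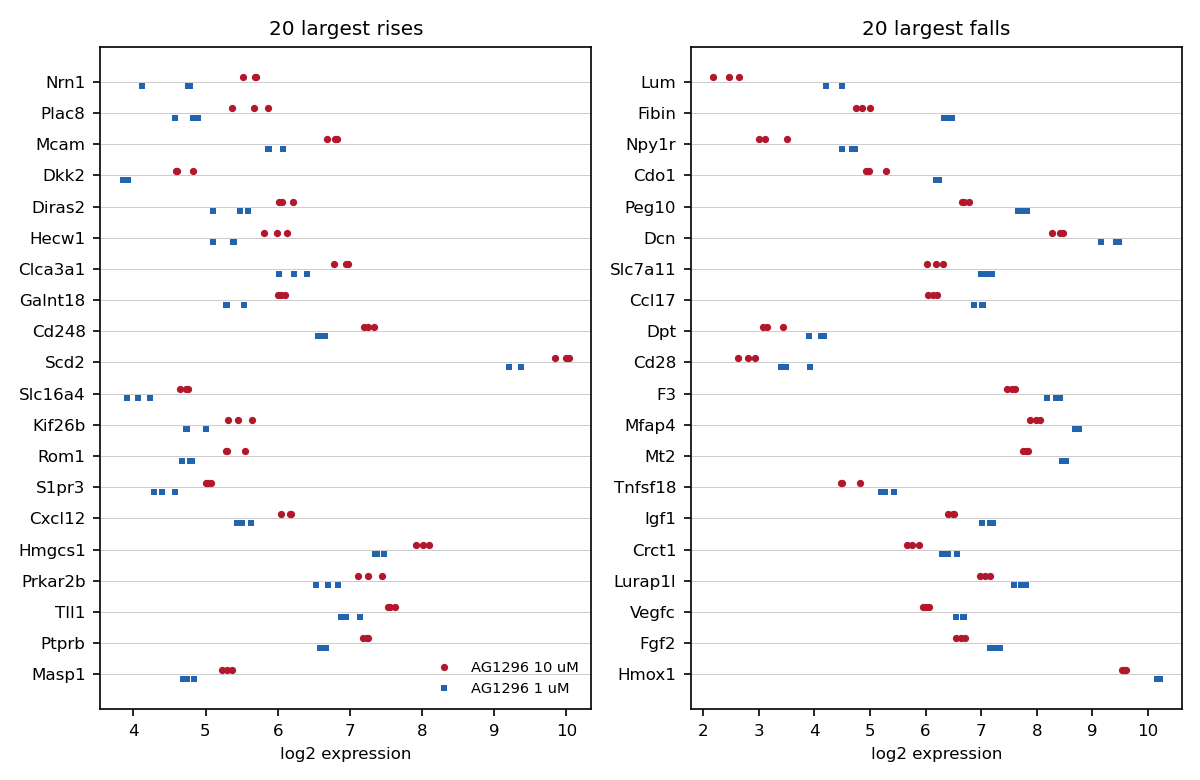
Log2 expression (horizontal axis) in each AG1296 array for the 20 largest rises (left) and the 20 largest falls (right) among named called genes, ordered by the size of the difference. Red circles are the 3 arrays at 10 uM and blue squares, just under them, the 3 at 1 uM; in no gene do the doses overlap, and the gap is widest for Lum, at 2.18 to 2.65 against 4.21 to 4.49.

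**Figure D3:**
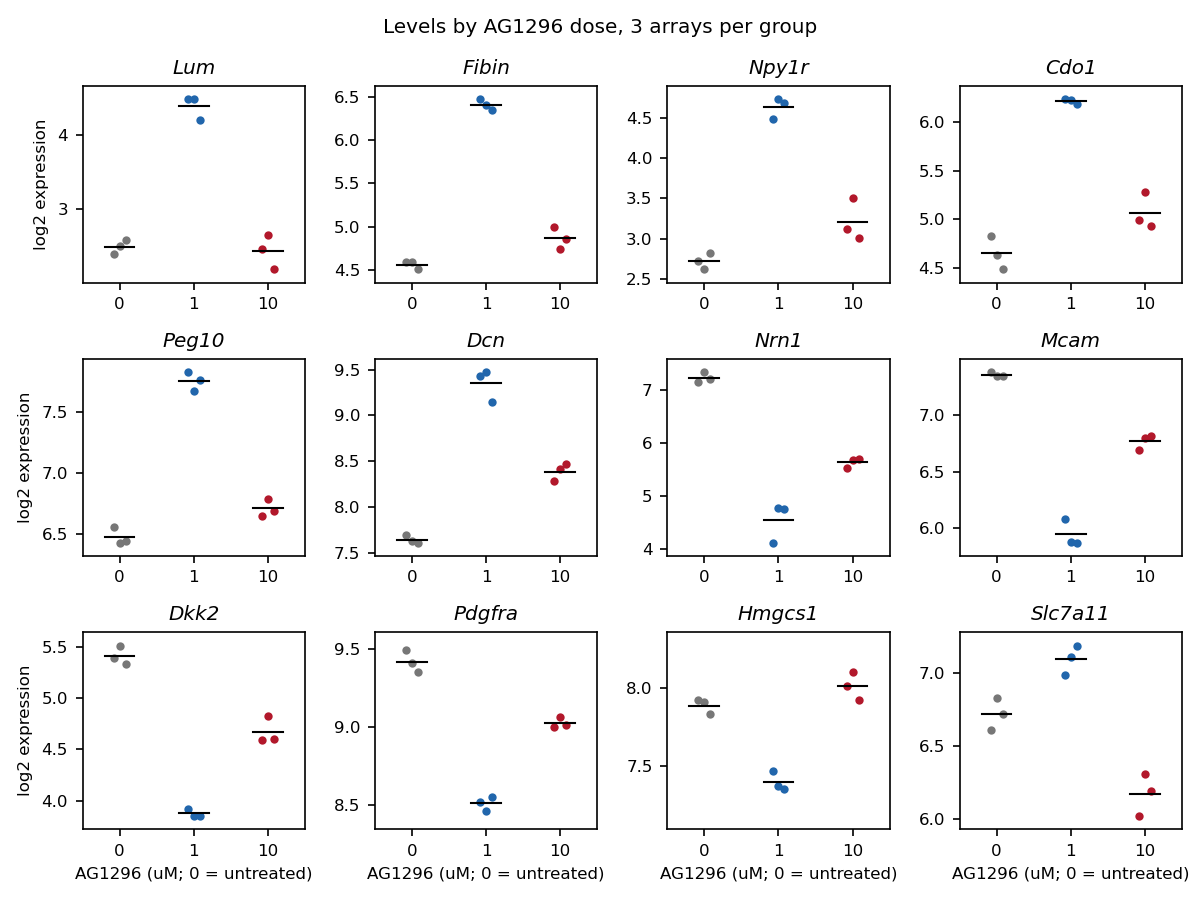
Log2 expression (vertical axis, 1 scale per gene) at 0 (untreated), 1 and 10 uM AG1296 for 12 genes. Points are the 3 arrays of a group and black bars their means; Lum, Fibin and Peg10 stand high at 1 uM, Nrn1, Mcam and Dkk2 stand lowest at 1 uM, and Slc7a11 is lowest at 10 uM, at 6.02 to 6.31.

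Cholesterol is built from acetyl-CoA through the mevalonate pathway, and the genes of its enzymes are switched on together by the membrane-bound transcription factor SREBP2 when sterol in the endoplasmic reticulum runs low. Of 26 listed genes of sterol synthesis and its regulation, 21 were measured. Of these, 3 rose (Hmgcs1, Fdps and Nsdhl), against 0.196% of all genes. None fell. All 21 differences lay above 0, against 55.1% of all genes. Their median was 0.28, against 0.02 over all genes, with the highest at 0.61 (Hmgcs1) and the lowest at 0.05 (Ebp). An unadjusted p under 0.05 was reached by 15 of the 21, all higher (9.07% of all genes in either direction). The arrays at 10 uM lay all above those at 1 uM in 16 (15.9% of all genes did not overlap, in either direction). Over 19 settings the list's median stayed between 0.26 and 0.33, with 20 or 21 members above 0 and 0 to 7 called higher.

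Hmgcs1 encodes the cytosolic HMG-CoA synthase at the entry to the mevalonate pathway. It read 8.01, 8.10 and 7.92 at 10 uM, against 7.47, 7.37 and 7.35 at 1 uM. It rose by 0.61 (SE 0.09, adjusted p = 0.00822), with a gap between the doses larger than the spread within either. Against untreated it differed by 0.12 at 10 uM (adjusted p = 0.684) and by -0.49 at 1 uM (adjusted p = 0.00581). Fdps, the farnesyl diphosphate synthase that joins the isoprene units, read 7.77, 7.82 and 7.79 at 10 uM, against 7.38, 7.16 and 7.24 at 1 uM, a rise of 0.53 (SE 0.10, adjusted p = 0.0346). Nsdhl, a dehydrogenase that takes part in removing methyl groups from the sterol ring, read 6.93, 6.99 and 6.62 at 10 uM, against 6.35, 6.29 and 6.36 at 1 uM, a rise of 0.51 (SE 0.10, adjusted p = 0.0459). Of its arrays at 10 uM, replicate 3 lay closest to the 1 uM arrays. These calls were close to the threshold: that of Hmgcs1 was lost without 10 uM replicate 1 or 1 uM replicate 2 (adjusted p of 0.055 to 0.0579), that of Fdps without any AG1296 array, PDGF-AB replicate 2 or 3 or untreated replicate 2 (0.0517 to 0.174), and that of Nsdhl without any 1 array but 10 uM replicate 3 (0.0503 to 0.192). With each array centred on its median, Fdps (adjusted p = 0.0546) and Nsdhl (0.0883) were also not called by limma.

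Other members were higher at 10 uM without passing the test. Insig1, the sterol-sensing retention protein and itself a SREBP target, averaged 9.0 at 10 uM and 8.45 at 1 uM (difference 0.54, adjusted p = 0.0548). Sqle, the squalene epoxidase, averaged 7.39 at 10 uM and 6.93 at 1 uM (difference 0.46, adjusted p = 0.102), and Srebf2, the gene of SREBP2, averaged 7.79 and 7.46 in the same order (difference 0.33, adjusted p = 0.175). The medians of the list against untreated were 0.13 at 10 uM and -0.20 at 1 uM.

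**Figure D4:**
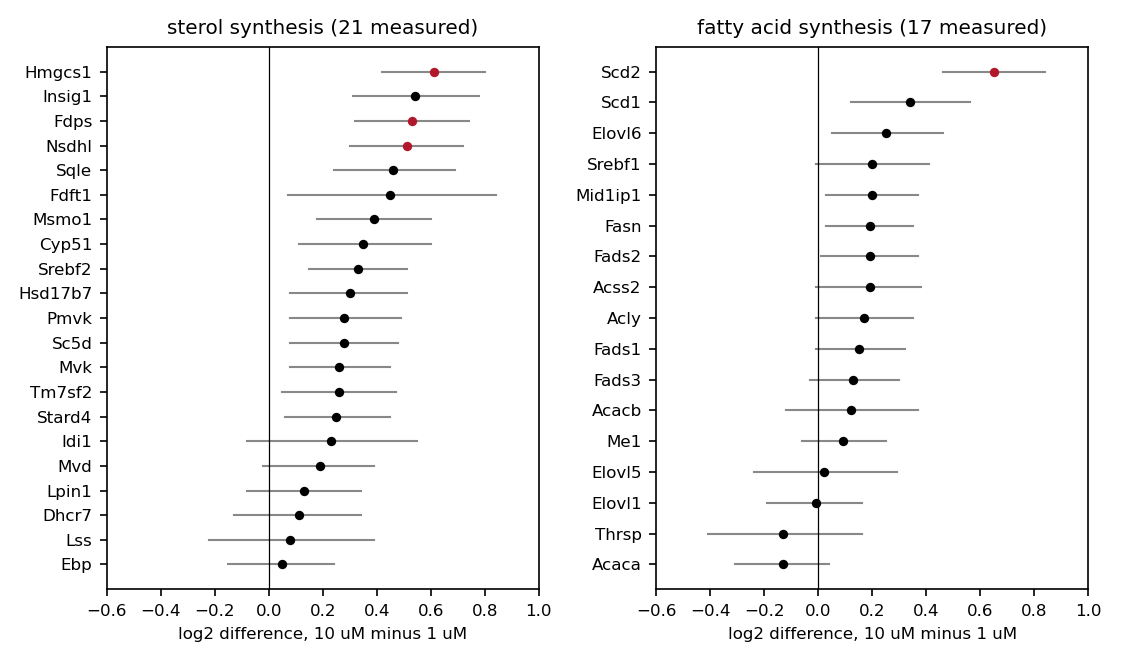
Log2 difference between doses (10 uM minus 1 uM, horizontal axis) for the 21 measured sterol synthesis genes (left) and the 17 measured fatty acid synthesis genes (right). Dots are differences with 95% confidence intervals from the fit, red where called; every sterol gene lies right of 0, and Scd2 at 0.65 is farthest right on the fatty acid side.

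The promoter windows of Hmgcs1 and Nsdhl, the called sterol genes with an entry in the RefSeq table (GRCm38.p6), are shown because the SREBP2 pathway is read at such sites. Each window runs from 250 bases before to 50 after the start of the gene, written 5′ to 3′ on the gene's strand. Capitals mark matches, on either strand, to a sterol regulatory element written TCACNCCAC and to the CCAAT box, which reads ATTGG where it lies on the opposite strand. The Hmgcs1 window (chr13:119690101-119690400, plus strand) held 1 sterol regulatory element, 137 bases before the start, and 4 CCAAT boxes. The Nsdhl window (chrX:72918271-72918570, plus strand) held 0 of the first and 4 of the second, and no matches overlapped in either window.
Hmgcs1: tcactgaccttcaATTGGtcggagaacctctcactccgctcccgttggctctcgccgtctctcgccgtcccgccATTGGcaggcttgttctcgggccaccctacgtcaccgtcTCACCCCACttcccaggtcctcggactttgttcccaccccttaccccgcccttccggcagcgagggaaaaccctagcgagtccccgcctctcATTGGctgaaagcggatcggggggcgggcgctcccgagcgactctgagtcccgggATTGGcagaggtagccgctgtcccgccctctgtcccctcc
Nsdhl: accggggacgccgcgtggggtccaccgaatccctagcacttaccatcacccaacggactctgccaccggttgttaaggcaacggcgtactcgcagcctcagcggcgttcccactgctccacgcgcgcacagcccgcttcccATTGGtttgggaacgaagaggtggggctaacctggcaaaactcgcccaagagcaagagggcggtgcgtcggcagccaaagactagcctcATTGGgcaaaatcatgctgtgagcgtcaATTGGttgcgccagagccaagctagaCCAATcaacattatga
Of the 21 measured sterol genes, 17 had a window; 1 of these (5.88%) held the sterol regulatory element and 15 (88.2%) a CCAAT box, against 1.22% and 37.9% of all 27025 windows of this length. A match is a description of these letters, not a bound site.

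Fatty acid synthesis shares the SREBP family and the acetyl-CoA supply. Of 17 measured genes 1 rose, against 0.196% of all genes. This was Scd2, a stearoyl-CoA desaturase that makes monounsaturated fatty acids. It read 10.00, 10.04 and 9.84 at 10 uM, against 9.37, 9.37 and 9.20 at 1 uM, a rise of 0.65 (SE 0.09, adjusted p = 0.00724). The call was lost without 10 uM replicate 1 (adjusted p = 0.0522). Scd2 differed from untreated by 0.28 at 10 uM (adjusted p = 0.173) and by -0.37 at 1 uM (adjusted p = 0.0378). Its paralog Scd1 averaged 7.70 at 10 uM and 7.36 at 1 uM (adjusted p = 0.259), and the fatty acid synthase Fasn averaged 7.92 and 7.73 in the same order (adjusted p = 0.448). The list had 14 of 17 members higher (55.1% of all genes) and a median of 0.17. An unadjusted p under 0.05 was reached by 6, all higher (9.07% of all genes in either direction). The arrays did not overlap in 12 that were higher and 1 that was lower (15.9% of all genes).

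Slc7a11, Cdo1, Mt2 and Hmox1, with roles in cysteine, metal and haem handling, fell. Slc7a11 encodes the light chain of the cystine-glutamate exchanger that supplies cysteine for glutathione, and it is a target of both ATF4, the amino acid stress factor, and NRF2, the oxidative stress factor. It read 6.02, 6.31 and 6.19 at 10 uM, against 6.99, 7.11 and 7.19 at 1 uM, with no overlap. It fell by 0.92 (SE 0.12, adjusted p = 0.00491). Against untreated it was called lower at 10 uM, with a difference of -0.54 (adjusted p = 0.0337), and differed by 0.38 at 1 uM (adjusted p = 0.135).

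The Slc7a11 window in the RefSeq table (GRCm38.p6, chr3:50443564-50443863, minus strand, written 5′ to 3′ on the gene's strand) is shown because ATF4 is known to act there. Capitals mark the amino acid response element TTGCATCA, searched on both strands.
Slc7a11: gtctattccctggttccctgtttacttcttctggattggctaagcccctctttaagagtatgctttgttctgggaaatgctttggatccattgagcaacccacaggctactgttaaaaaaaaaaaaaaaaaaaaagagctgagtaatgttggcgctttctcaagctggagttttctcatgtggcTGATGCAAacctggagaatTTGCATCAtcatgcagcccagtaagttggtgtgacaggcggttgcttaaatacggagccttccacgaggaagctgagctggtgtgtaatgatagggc
It held 2 matches, 66 and 47 bases before the start and in opposite orientation, which did not overlap; 0.929% of all windows held at least 1. The antioxidant response element TGACNNNGC, searched on both strands, had 0 matches here and was found in 12.5% of all windows.

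Cdo1, the cysteine dioxygenase that breaks cysteine down towards taurine, read 4.99, 5.28 and 4.93 at 10 uM, against 6.24, 6.23 and 6.19 at 1 uM. It fell by 1.16 (SE 0.12, adjusted p = 0.000553) and differed from untreated by 0.42 at 10 uM and 1.58 at 1 uM (adjusted p = 0.109 and 3.09e-06). Mt2, a metallothionein that binds zinc and copper, read 7.80, 7.84 and 7.75 at 10 uM, against 8.52, 8.53 and 8.46 at 1 uM. It fell by 0.71 (SE 0.08, adjusted p = 0.00175), and it differed from untreated by -0.17 at 10 uM and 0.54 at 1 uM (adjusted p = 0.471 and 0.00187).

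Hmox1, the haem oxygenase induced by NRF2, read 9.61, 9.57 and 9.54 at 10 uM, against 10.21, 10.17 and 10.17 at 1 uM. It fell by 0.61 (SE 0.10, adjusted p = 0.0184). It was called lower than untreated at 10 uM, with a difference of -0.99 (adjusted p = 0.000119), and differed by -0.38 at 1 uM (adjusted p = 0.06), so both AG1296 doses lay below the untreated arrays. The call between doses was lost when any 1 of the 6 AG1296 arrays was left out (adjusted p of 0.0679 to 0.094).

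Slc7a11 and Hmox1 were the 2 called members of 26 NRF2 genes, while 0.376% of all genes were called. The median of the list was 0.00, and 13 lay lower. An unadjusted p under 0.05 was reached by 5 that were lower and 1 that was higher (9.07% of all genes). The arrays did not overlap in 7 that were lower and 4 that were higher (15.9% of all genes). Gclm, which makes part of the glutathione-synthesising enzyme, averaged 8.79 at 10 uM and 8.93 at 1 uM (adjusted p = 0.722). Nqo1 averaged 6.56 and 6.51 in the same order (adjusted p = 0.953). Slc7a11 was the 1 called member of 34 genes of ATF4 and the unfolded protein response. In that list 26 lay lower and the median was -0.10, while 55.1% of all genes lay higher. An unadjusted p under 0.05 was reached by 7, all lower (9.07% of all genes in either direction). The arrays did not overlap in 12, all lower (15.9% of all genes in either direction). Of the same list, the asparagine synthetase Asns averaged 10.28 at 10 uM and 10.37 at 1 uM (adjusted p = 0.789). The chaperone Hspa5 averaged 10.92 and 10.90 in the same order (adjusted p = 0.968). Over 19 settings the median of the ATF4 list ran from -0.13 to -0.07.

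Of 7 genes of PDGF receptors and ligands, 1 was called, Pdgfra, while 0.376% of all genes were called. An unadjusted p under 0.05 was reached by 1 that was higher and 2 that were lower (9.07% of all genes). The arrays did not overlap in 2 that were higher and 2 that were lower (15.9% of all genes). Pdgfrl averaged 5.42 at 10 uM and 5.92 at 1 uM without passing the test (difference -0.50, adjusted p = 0.171 in limma). Pdgfra, the receptor gene of the sort marker, read 9.0, 9.06 and 9.01 at 10 uM, against 8.52, 8.46 and 8.55 at 1 uM. It rose by 0.51 (SE 0.09, adjusted p = 0.0282), a gap several times the spread within either dose, and it was called lower than untreated at both doses, with differences of -0.40 at 10 uM and -0.91 at 1 uM (adjusted p = 0.0361 and 3.84e-05). The call between doses was lost when any 1 of the 6 AG1296 arrays was left out (adjusted p of 0.0884 to 0.134). Pdgfrb, the partner receptor, read 9.09, 9.19 and 9.21 at 10 uM, against 9.23, 9.16 and 9.27 at 1 uM, and its arrays overlapped. Its difference of -0.05 had a 95% confidence interval of -0.26 to 0.16 (adjusted p = 0.916).

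The ligand genes and the other known targets of the compound gave no call between doses. Pdgfa, the A chain of the ligand, averaged 7.49 ± 0.07 at 10 uM and 7.39 ± 0.03 at 1 uM (SD; adjusted p = 0.774), and Pdgfb, the B chain, averaged 3.84 ± 0.21 and 3.75 ± 0.20 in the same order (adjusted p = 0.888). Pdgfc averaged 5.09 at 10 uM and 5.49 at 1 uM (difference -0.40, adjusted p = 0.381). Fgfr1, an FGF receptor, averaged 8.02 ± 0.05 at 10 uM and 8.02 ± 0.00 at 1 uM (SD), with a confidence interval of -0.18 to 0.18 for the difference. Kit was dim, at 3.64 ± 0.12 at 10 uM and 3.51 ± 0.12 at 1 uM (SD; adjusted p = 0.775). Of 33 other receptor tyrosine kinases, 0 were called by limma and 6 had an unadjusted p under 0.05 (3 higher and 3 lower), against 9.07% of all genes. The angiopoietin receptor Tek had the lowest p, at 3.79 ± 0.08 at 10 uM and 4.25 ± 0.20 at 1 uM (SD, adjusted p = 0.0868).

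Further signalling receptors were called higher. S1pr3, a receptor of the lysolipid sphingosine-1-phosphate, averaged 5.04 ± 0.04 at 10 uM and 4.42 ± 0.14 at 1 uM (SD) and rose by 0.62 (SE 0.10, adjusted p = 0.0184). Ptprb, a receptor-type tyrosine phosphatase, averaged 7.22 ± 0.04 at 10 uM and 6.63 ± 0.05 at 1 uM (SD) and rose by 0.59 (SE 0.09, adjusted p = 0.0122). Both were called lower than untreated at both doses, S1pr3 by differences of -1.12 at 10 uM and -1.74 at 1 uM (adjusted p = 5.42e-05 and 5.55e-07), and Ptprb by -0.68 and -1.27 in the same order (adjusted p = 0.000825 and 1.92e-06). The call of S1pr3 was lost without any AG1296 array but 1 uM replicate 1 (adjusted p of 0.0679 to 0.0965), and that of Ptprb without 10 uM replicate 1 or 3 or 1 uM replicate 2 (0.062 to 0.0828).

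Downstream of the receptors, the feedback genes that ERK signalling induces gave no call between doses. Of 20 such genes, 0 were called by limma and 2 had an unadjusted p under 0.05 (1 higher and 1 lower), against 9.07% of all genes. The lowest p belonged to Dusp10, a phosphatase of stress kinases, at 5.32 ± 0.07 at 10 uM and 5.71 ± 0.04 at 1 uM (SD; difference -0.39, adjusted p = 0.121). Spry2, a feedback inhibitor of receptor tyrosine kinases, averaged 7.65 at both doses (adjusted p = 0.995). Among 27 immediate early genes 0 were called by limma and 3 had an unadjusted p under 0.05, all lower; the growth factor gene Hbegf averaged 7.52 ± 0.10 at 10 uM and 7.90 ± 0.08 at 1 uM (SD; adjusted p = 0.116).

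Ccnd1 encodes cyclin D1, the G1 cyclin that growth factor signalling induces. It read 11.05, 11.07 and 11.13 at 10 uM, against 10.57, 10.53 and 10.58 at 1 uM. The rise of 0.53 (SE 0.08, adjusted p = 0.00992) far exceeded the spread within either dose. Against untreated it differed by -0.10 at 10 uM (adjusted p = 0.71) and by -0.63 at 1 uM (adjusted p = 0.000296). The call was lost without 10 uM replicate 1 or 3 or 1 uM replicate 1 or 2 (adjusted p of 0.0513 to 0.072). Ccnd1 was the 1 called member of 14 G1 cyclins and CDK inhibitors, while 0.376% of all genes were called.

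Genes of the later cell cycle gave no call between doses. Of 31 mitosis genes, 0 were called by limma and 0 had an unadjusted p under 0.05, against 9.07% of all genes. The mitotic kinase Plk1 averaged 7.77 ± 0.09 at 10 uM and 7.61 ± 0.13 at 1 uM (SD, adjusted p = 0.675). Of 29 DNA replication genes, 0 were called by limma and 4 had an unadjusted p under 0.05 (1 higher and 3 lower), with the ribonucleotide reductase subunit Rrm2 at 8.55 ± 0.04 at 10 uM and 8.77 ± 0.13 at 1 uM (SD; adjusted p = 0.424).

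Igf1, Igfbp2, Vegfc and Fgf2, which encode secreted growth factors and a binding protein, fell. Igf1, the insulin-like growth factor, read 6.41, 6.49 and 6.51 at 10 uM, against 7.22, 7.15 and 7.01 at 1 uM. It fell by 0.66 (SE 0.09, adjusted p = 0.00778) and was called higher than untreated at both doses, by 0.44 at 10 uM and 1.10 at 1 uM (adjusted p = 0.023 and 8.65e-06). The IGF binding protein Igfbp2 averaged 8.27 ± 0.04 at 10 uM and 8.79 ± 0.13 at 1 uM (SD) and fell by 0.52 (SE 0.10, adjusted p = 0.0459). These were the 2 called members of 14 genes of the IGF axis, while 0.376% of all genes were called. In that list 8 lay higher (55.1% of all genes). An unadjusted p under 0.05 was reached by 5 that were lower and 1 that was higher (9.07% of all genes in either direction). The arrays did not overlap in 5 that were lower and 2 that were higher (15.9% of all genes). Without 10 uM replicate 1 or 1 uM replicate 2 the call of Igf1 was lost (adjusted p of 0.0518 to 0.055), and that of Igfbp2 was lost without any 1 array but PDGF-AB replicate 1 or 2 (0.0652 to 0.167).

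Vegfc, a growth factor of lymphatic endothelium, read 5.96, 6.00 and 6.07 at 10 uM, against 6.67, 6.70 and 6.55 at 1 uM, and fell by 0.63 (SE 0.08, adjusted p = 0.00476). It differed from untreated by 0.09 at 10 uM and 0.72 at 1 uM (adjusted p = 0.768 and 0.000143). Fgf2, a fibroblast mitogen, averaged 6.63 ± 0.08 at 10 uM and 7.24 ± 0.10 at 1 uM (SD), and fell by 0.61 (adjusted p = 0.0161). Its values against untreated were the other way round from those of Vegfc, at -0.49 at 10 uM and 0.12 at 1 uM (adjusted p = 0.0161 and 0.7). The Fgf2 call was lost without 10 uM replicate 1, 2 or 3 or 1 uM replicate 1 or 2 (adjusted p of 0.0551 to 0.0903).

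F3, which encodes tissue factor, the cell-surface starter of coagulation, averaged 7.55 ± 0.07 at 10 uM and 8.31 ± 0.12 at 1 uM (SD). It fell by 0.77 (SE 0.12, adjusted p = 0.0138), a call that was lost without 10 uM replicate 1 or 3 or 1 uM replicate 2 or 3 (adjusted p of 0.062 to 0.0828). Against untreated it differed by -0.11 at 10 uM and 0.65 at 1 uM (adjusted p = 0.816 and 0.00618).

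Chemokine genes were called in both directions. Ccl17, a chemokine that attracts T cells through CCR4, read 6.13, 6.20 and 6.04 at 10 uM, against 7.02, 7.04 and 6.87 at 1 uM, and fell by 0.85 (SE 0.09, adjusted p = 0.000553). Cxcl12, a stromal chemokine that retains progenitors and leukocytes, read 6.18, 6.17 and 6.04 at 10 uM, against 5.43, 5.63 and 5.50 at 1 uM, and rose by 0.61 (SE 0.09, adjusted p = 0.0128). Ccl17 differed from untreated by -0.11 at 10 uM and 0.74 at 1 uM (adjusted p = 0.723 and 0.000197), and Cxcl12 by -0.49 and -1.10 in the same order (adjusted p = 0.0136 and 9.5e-06). The Cxcl12 call was lost without 10 uM replicate 1 or 2 or 1 uM replicate 1 or 3 (adjusted p of 0.0551 to 0.0763). Cxcl12 was the 1 called gene of 25 listed chemokines and cytokines, while 0.376% of all genes were called. Ccl17 was not on that list.

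Of 36 Wnt ligands, receptors and inhibitors, 2 rose, against 0.196% of all genes. Dkk2, a secreted ligand of the Wnt co-receptor LRP6 that can inhibit or activate the pathway, read 4.59, 4.82 and 4.6 at 10 uM, against 3.92, 3.85 and 3.85 at 1 uM. It rose by 0.80 (SE 0.11, adjusted p = 0.00778) and lost the call without 1 uM replicate 2 (adjusted p = 0.0518). The 1 uM arrays of Dkk2 lay below every array median. Kif26b, a kinesin family member downstream of Wnt5a and Ror receptors, averaged 5.47 ± 0.16 at 10 uM and 4.83 ± 0.15 at 1 uM (SD; difference 0.64, adjusted p = 0.0345). A second probe set of Kif26b gave a difference of 0.66 (unadjusted p = 0.00277).

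Dkk2 and Kif26b stood on opposite sides of untreated. Dkk2 differed from it by -0.74 at 10 uM and -1.54 at 1 uM (adjusted p = 0.00328 and 2.75e-06), and Kif26b by 1.38 and 0.74 in the same order (adjusted p = 3.31e-05 and 0.00231), so Kif26b was a gene whose distance from untreated was greater at the higher dose. The Kif26b call between doses was lost without any AG1296 array but 1 uM replicate 1, without PDGF-AB replicate 2 or 3 and without untreated replicate 2 (adjusted p of 0.0508 to 0.173). The median of the Wnt list was 0.08.

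Single members of several other lists were called. Over all genes 0.196% were called higher, the share to set beside each count here. Cyp1b1, a cytochrome P450 induced by the aryl hydrocarbon receptor, averaged 9.34 ± 0.06 at 10 uM and 8.84 ± 0.01 at 1 uM (SD; difference 0.50, adjusted p = 0.0172), the 1 called of 10 such targets. Gpnmb, a lysosomal and melanosomal glycoprotein, averaged 6.84 ± 0.02 at 10 uM and 6.39 ± 0.06 at 1 uM (SD; difference 0.46, adjusted p = 0.0286), the 1 called of 29 lysosome and autophagy genes. Masp1, a protease of the lectin pathway, averaged 5.30 ± 0.07 at 10 uM and 4.76 ± 0.07 at 1 uM (SD; difference 0.55, adjusted p = 0.0193), the 1 called of 13 complement genes. All 3 lost their call when any 1 of the 6 AG1296 arrays was left out, with adjusted p up to 0.084 for Cyp1b1, 0.134 for Gpnmb and 0.109 for Masp1.

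The corresponding falls were Sdha, Rarb and Ifit3. Over all genes 0.181% were called lower, the share to set beside each count here. Sdha, a subunit of succinate dehydrogenase, averaged 8.17 ± 0.07 at 10 uM and 8.67 ± 0.03 at 1 uM (SD; difference -0.51, adjusted p = 0.0161); it was the 1 called of 24 oxidative phosphorylation genes, whose median was -0.02. The retinoic acid receptor Rarb, itself induced by retinoic acid, averaged 4.42 ± 0.03 at 10 uM and 4.94 ± 0.10 at 1 uM (SD; difference -0.53, adjusted p = 0.0166), the 1 called of 16 in its list. Ifit3, an interferon-induced antiviral protein, averaged 6.03 ± 0.08 at 10 uM and 6.57 ± 0.09 at 1 uM (SD; difference -0.53, adjusted p = 0.0214), the 1 called of 23 interferon response genes. Their calls were lost without 5 of the 6 AG1296 arrays in turn, the exceptions being 10 uM replicate 2 for Sdha, 1 uM replicate 1 for Rarb and 1 uM replicate 3 for Ifit3 (adjusted p up to 0.0848, 0.0919 and 0.115).

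The largest remaining rises were Plac8 (0.88), Diras2 (0.70), Hecw1 (0.68), Galnt18 (0.68), Clca3a1 (0.68), Slc16a4 (0.64), Rom1 (0.62) and Prkar2b (0.59), with adjusted p from 0.0161 to 0.0459. Prkar2b is a regulatory subunit of protein kinase A, Galnt18 belongs to the family that starts O-linked glycosylation, and Hecw1 is a ubiquitin ligase. The call of Galnt18 was lost without any AG1296 array but 1 uM replicate 3 (adjusted p up to 0.0882), those of Hecw1 and Clca3a1 without any of the 6 (up to 0.124 and 0.162), and that of Rom1 also without untreated replicate 2 (up to 0.156). Plac8 lost its call without any 1 array but 10 uM replicate 2 and PDGF-AB replicates 2 and 3 (up to 0.181), and Slc16a4 without any but PDGF-AB replicates 1 and 3 and untreated replicate 3 (up to 0.186). Diras2 lost its call without any 1 array but untreated replicate 3 (up to 0.191), and Prkar2b without any but PDGF-AB replicate 1 (up to 0.168).

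The largest remaining falls were Cd28 (-0.82), Tnfsf18 (-0.70), Crct1 (-0.65) and Lurap1l (-0.64), with adjusted p from 0.00778 to 0.0459. Cd28, the T cell co-stimulatory receptor, was below every array median at both doses, at 2.78 ± 0.16 at 10 uM and 3.60 ± 0.28 at 1 uM (SD). Tnfsf18, a ligand of the TNF family, averaged 4.6 ± 0.20 at 10 uM and 5.30 ± 0.13 at 1 uM (SD). Lurap1l lost its call without 10 uM replicate 1 or 1 uM replicate 2 (adjusted p of 0.0558 to 0.0579), Crct1 without 10 uM replicate 1 or 3 or 1 uM replicate 1 or 2 (0.0828 to 0.094), Cd28 without any AG1296 array but 1 uM replicate 3 (0.0551 to 0.149), and Tnfsf18 without any 1 array but untreated replicates 1 and 3 (0.0538 to 0.193).

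Among genes with a single-symbol probe set, the markers of other cell types gave no call besides Mcam. Most were dim except in the mesothelial and epicardial list. A probe set shared by Ly6c2, which is on the leukocyte list, and Ly6c1 was left out for its several symbols. It was called higher when all probe sets were tested (difference 0.85, SE 0.11, adjusted p = 0.0131 in limma). By limma, 0 of 14 endothelial markers were called (1 at an unadjusted p under 0.05, lower), 0 of 15 cardiomyocyte markers (1, lower), 0 of 16 macrophage and leukocyte markers (1, higher), 0 of 13 mesothelial and epicardial markers (5, of which 2 higher and 3 lower) and 0 of 8 Schwann cell markers (0). That unadjusted p was reached by 9.07% of all genes. The mean level of the leukocyte list ran from 3.28 to 3.37 in the 10 uM arrays and from 3.33 to 3.39 in the 1 uM arrays, below every array median, and that of the endothelial list from 3.90 to 3.96 and from 3.87 to 4.0 in the same order. Eng, an endothelial marker that fibroblasts also express, was bright, at 9.58 at 10 uM and 9.46 at 1 uM. Of the 13 mesothelial and epicardial markers, only 4 averaged below every array median at both doses. Ezr, with the lowest p of that list, averaged 6.51 ± 0.16 at 10 uM and 6.90 ± 0.10 at 1 uM (SD, adjusted p = 0.196 in limma).

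Contractile and profibrotic genes that mark activated fibroblasts gave no call between doses. Of 20 myofibroblast contractile genes, 0 were called by limma and 7 had an unadjusted p under 0.05, 6 of them higher. Over all genes, 9.07% reached that p, the share to set beside each such count here. Cnn1, a calponin of smooth muscle type, averaged 7.25 ± 0.17 at 10 uM and 6.75 ± 0.08 at 1 uM (SD; difference 0.50, adjusted p = 0.118), and the smooth muscle actin gene Acta2 averaged 12.54 at 10 uM and 12.60 at 1 uM (adjusted p = 0.866). Of 22 targets of TGF-beta and YAP, 0 were called by limma and 6 had an unadjusted p under 0.05 (1 higher and 5 lower). The latent TGF-beta binding protein Ltbp2 averaged 6.52 ± 0.03 at 10 uM and 6.84 ± 0.14 at 1 uM (SD; adjusted p = 0.216). Bmp4, a ligand of the same superfamily, averaged 6.41 ± 0.14 at 10 uM and 6.96 ± 0.17 at 1 uM (SD; difference -0.55, adjusted p = 0.0787), and 0 of 21 BMP ligands and antagonists were called by limma, with 4 at an unadjusted p under 0.05 (1 higher and 3 lower).

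In the other lists with 0 calls by limma, the numbers at an unadjusted p under 0.05 were 8 of 27 matrix proteases and inhibitors (5 higher and 3 lower), 3 of 21 PI3K-FOXO feedback genes (3 higher), 3 of 20 p53 targets (1 higher and 2 lower), 2 of 24 glycolysis and hypoxia genes (1 each way) and 2 of 13 RGS regulators (1 each way). The share over all genes was 9.07%. Mmp23, a membrane-bound metalloprotease, averaged 7.90 ± 0.04 at 10 uM and 7.48 ± 0.12 at 1 uM (SD; adjusted p = 0.087). Trp53inp1, which lies downstream of both p53 and FOXO factors, averaged 9.12 ± 0.04 at 10 uM and 8.73 ± 0.07 at 1 uM (SD; adjusted p = 0.06). The hexokinase gene Hk2 averaged 6.69 ± 0.13 at 10 uM and 7.0 ± 0.07 at 1 uM (SD; adjusted p = 0.257).

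**Figure D5:**
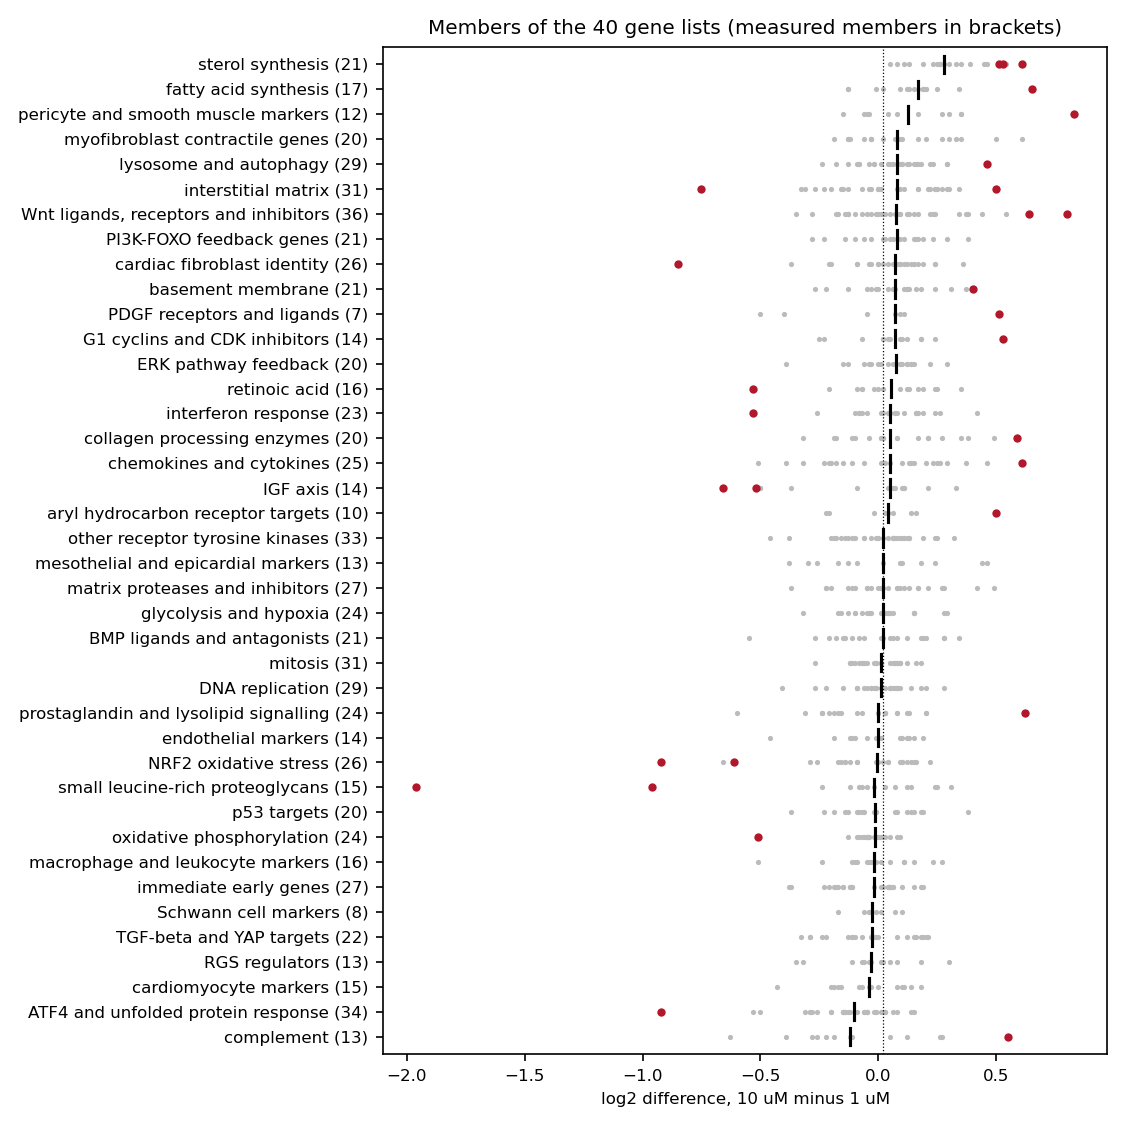
Log2 differences (10 uM minus 1 uM, horizontal axis) of the measured members of 40 gene lists, ordered by list median. Grey dots are members that were not called, red dots called members, black ticks list medians, and the dotted line the median of all genes, 0.02; sterol synthesis is at the top with a median of 0.28, and complement at the bottom with -0.12.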

How the data were processed

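The deposited table holds log2 expression for 28853 probe sets on 12 single-channel arrays, made by the authors with RMA and limma per the submitters' processing notes; no source used here gives settings, versions or a build, and the log base was inferred from how high the values reach. Per the labels, the Affymetrix WT kit was used for labelling. No normalization and no filter on dim genes was added. Probe sets with no symbol (5443) or several (1621) were left out; of the 21789 with 1 symbol the brightest per gene was kept, which gave 19938 genes.

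All 12 arrays entered 1 fit with a mean per group in limma 3.58.1 (R 4.3.3), with empirical Bayes moderation (prior degrees of freedom 5.35, residual 8, median residual SD 0.147). Tests were two-sided and adjusted by Benjamini-Hochberg over all genes, with a call at an adjusted p under 0.05. The procedure was tested on simulated data. Named genes are the 20 largest rises and falls among called genes with separated doses, up to 4 called members of each of 40 lists or the member of lowest p where none was called, and the genes Pdgfra, Pdgfrb, Pdgfa, Pdgfb, Kit, Fgfr1 and Pecam1; predicted genes and small RNAs were only counted. Further list members are named as examples or non-passing counterparts, chosen after their values were seen. The 40 lists held 860 genes, of which 802 were measured. The comparison, the lists and the rule were chosen with earlier results of these data known. Alternatives covered the arrays in the fit, normalization, probe sets, a dim filter, variance moderation, the replicate number as a block and leaving out each array.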

Additional observations from a re-analysis of the deposited data

How the results depend on the processing

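For 10 uM against 1 uM, main count 75, fitting the 6 AG1296 arrays alone called 14 genes, a filter on dim genes 175, and an intensity trend with robust moderation 209; leaving out 1 array gave 16 to 82. For 10 uM against untreated (375) these settings gave 218, 660 and 686, and leaving out 1 array 219 to 434. For 1 uM against untreated (639) the filter gave 989, the trend 1010, and leaving out 1 array 349 to 718. The filter tests fewer genes and the fit on 6 arrays has fewer samples; the cause was not tested otherwise. Quantile normalization (89), median centring (55), all probe sets (54) and the mean of a gene's probe sets (74) stayed within 1.5 times of 75. Of 52 called genes named by rule, 11 were called under every setting that gave them a value, 14 with the 6 arrays alone and 44 after median centring. The calls lost after centring were those of Hecw1, Clca3a1, Slc16a4, Prkar2b, Fdps, Nsdhl, Nid1 and Gpnmb, all rises (adjusted p of 0.053 to 0.124). The dim filter dropped 13 named genes, which have no value there. Signs turned for 3 uncalled genes: Pdgfb (-0.01 to 0.21 with 1 array left out, below 0 only without AG1296 1 uM replicate 2), Fgfr1 (0.01 after quantile normalization, -0.03 to 0.02 with 1 array left out, including 0.00 and 0.01) and Pecam1 (-0.04 after quantile normalization, -0.02 after median centring, -0.09 to 0.13 with 1 array left out).

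With the replicate number as a block, 77 genes were called between doses, 62 of them shared with the 75, and 391 and 666 against untreated. Of the named called genes, Plac8 (adjusted p = 0.0582), Kif26b (0.0606), Tnfsf18 (0.0667), Nsdhl (0.0582), Nid1 (0.0632) and Igfbp2 (0.0514) were not called with the block. Nothing in the labels ties same-numbered arrays together, and the arrays gave only a partial hint that they are: deviations from group means of same-numbered arrays correlated at -0.02 to 0.07 for replicate 1, 0.15 to 0.30 for replicate 2 and -0.03 to 0.22 for replicate 3, and 9 of 12 arrays correlated best with their own number. Genes near or below the array medians of 4.02 to 4.13 are close to background, and 3 arrays per group limit what can be called.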

Other observations

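The values here were picked out after they were seen and have no test beyond the fit. Several genes of short noncoding RNAs had larger differences between doses than most called genes without being called. Rny3, a Y RNA, averaged 7.76 at 10 uM and 6.44 at 1 uM (difference 1.31, SE 0.55, adjusted p = 0.483). Rmrp, the RNA of a ribonuclease that processes ribosomal and mitochondrial RNA, averaged 9.90 at 10 uM and 8.99 at 1 uM (difference 0.92, adjusted p = 0.207), and Rpph1, the RNA of ribonuclease P, averaged 12.26 at 10 uM and 11.36 at 1 uM (difference 0.90, adjusted p = 0.116). In all 3 genes every array at 10 uM lay above every array at 1 uM, but their spread over the arrays was wide. Among 52 small nucleolar RNAs measured, 34 lay higher at 10 uM, the median was 0.09, 5 had an unadjusted p under 0.05 and 1 was called. Over all genes, 55.1% lay higher, 9.07% reached that p and 0.376% were called.

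Stc2, the stanniocalcin-2 gene, which is on both the IGF and the ATF4 list, averaged 4.47 at 10 uM and 4.97 at 1 uM (difference -0.50, adjusted p = 0.0574). Gsta3, a glutathione transferase, averaged 5.16 at 10 uM and 5.82 at 1 uM (difference -0.66, adjusted p = 0.078). Lmod1, a leiomodin of smooth muscle, averaged 5.14 at 10 uM and 4.53 at 1 uM (difference 0.61, adjusted p = 0.131).

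When all probe sets were tested, 5 without a single symbol were also called, 2 with no symbol and 3 with several. The latter included the probe set of Ly6c2 and Ly6c1 given above.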
